A study of Mus musculus with 12 samples.

Results

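The question concerned cultured bone marrow macrophages. It was which genes responded differently to RANKL in cells with and without a Cre recombinase that deletes Asxl2. This difference of responses, the RANKL by genotype interaction, was estimated from all 12 libraries of the series in 1 fit and tested for 13030 of the 41388 annotated genes, those that passed a filter on low counts. Each of 4 groups of C57BL/6 mouse cells had 3 libraries. Flox BMM were bone marrow macrophages from mice labelled Flox, and LysM BMM were the same kind of culture from mice labelled LysM Cre positive (KO), both given M-CSF alone. Flox OC and LysM OC were the same 2 genotypes given M-CSF and 50 ng/ml RANKL and labelled osteoclast. All groups shared 5 days of culture of primary marrow cells in medium with 10% serum, replating, and 2 further days with 2% M-CSF. LysM Cre is driven by the promoter of Lyz2, the lysozyme M gene of myeloid cells, so the deletion is directed to those cells. The labels name no group with Cre and an intact Asxl2, no animal behind a replicate number and no deleted exon, so effects of Cre itself and of the deletion cannot be told apart, and the p-values rest on how far these libraries differ within a group, a spread that could be technical.

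RANKL, a TNF-family cytokine, binds the receptor RANK on macrophage precursors. Through TRAF6, NF-κB, AP-1 and calcium signals it induces Nfatc1, the master transcription factor of osteoclasts, while factors that maintain the macrophage state are shut down. The precursors then fuse, and the mature cell dissolves bone mineral with acid and digests the matrix with proteases. ASXL2 is a chromatin protein that partners the deubiquitinase BAP1, which removes ubiquitin from histone H2A.

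The values are raw read counts per gene, tested with edgeR's quasi-likelihood test with Benjamini-Hochberg adjustment over all 13030 genes. A gene was called at an adjusted p under 0.05. Levels are given for each library as CPM, counts scaled to a fixed library size with TMM factors, and as mean ± SD with n = 3. Coordinates are those of the files, on GRCm38. Levels are not divided by gene length, so they compare libraries and not genes. The interaction is the log2 RANKL effect in LysM cells minus that in flox cells, with its standard error. A positive value means that the RANKL effect was more positive in LysM cells. It is the same number as the genotype difference in OC minus that in BMM. Genes called with a positive or negative value are written as higher or lower in the interaction.

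Libraries held 18489873 to 21667237 counts. The common biological coefficient of variation was 2.54%. Flox BMM libraries differed more among themselves than those of the other groups, with a chi-square per degree of freedom between pairs of 2.71 to 5.05 against 1.23 to 2. Without flox BMM replicate 1 the interaction calls described below numbered 3289 in place of 2849, the largest move from leaving out 1 library. Asxl2 (chr12:3426857-3506852) was measured at 95.6, 94 and 89.7 CPM in flox BMM, 75.6, 73.6 and 71 CPM in flox OC, 14.9, 14.9 and 15.4 CPM in LysM BMM and 15.1, 12.7 and 13.4 CPM in LysM OC. Every LysM library was below every flox library, and Asxl2 reads were still present in LysM cells. The Asxl2 interaction was 0.21 ± 0.08 (adjusted p = 0.0614) and was not called. Without flox BMM replicate 3, flox OC replicate 1 or LysM OC replicate 2 it was 0.225, 0.231 or 0.262, with adjusted p of 0.0419, 0.0498 and 0.0307 by the same edgeR test. Lyz2, whose promoter drives the Cre, went from 21792 ± 525 to 10623 ± 185 CPM in flox and from 19553 ± 393 to 11666 ± 90.4 CPM in LysM, with an interaction of 0.29 ± 0.03 (adjusted p = 1.13e-09). Macrophage markers were present in all libraries, with Cd68 at 1587 to 2415 CPM over the 12 libraries. Among osteoclast markers, Acp5, Ctsk, Dcstamp, Ocstamp, Mmp9, Nfatc1 and Atp6v0d2 were higher in every OC library than in same-genotype BMM libraries. Calcr, the calcitonin receptor, and Oscar, an osteoclast immunoreceptor, had at most 0.0494 and 0.244 CPM in any library. Itgb3, the β3 integrin of mature osteoclasts, went the other way. It fell from 3.19 to 4.77 CPM in flox BMM to 1.17 to 1.78 CPM in flox OC. In LysM it was at 1.2 to 1.78 CPM in BMM and 0.768 to 1.29 CPM in OC. These defining markers of mature osteoclasts were thus absent or low under this label.

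Of the 13030 genes, 2849 (21.9%) were called for the interaction, 1607 higher (12.3%) and 1242 lower (9.53%). The median absolute interaction of these genes was 0.284 on the log2 scale, and 104 genes (0.798%) were higher and 34 (0.261%) lower by more than 2-fold. For scale, RANKL changed 9747 genes (74.8%) in flox, with 37% of all genes rising and 37.8% falling, and 9182 (70.5%) in LysM cells, with 35.5% rising and 35% falling. Genotype changed 5203 (39.9%) in BMM and 5382 (41.3%) in OC, with 19.3% and 21.4% of all genes higher in LysM. The 2 RANKL effects share no library, whereas the interaction shares all libraries with each of them. Among the 2849 called genes, RANKL effects of the same sign but smaller size in LysM cells were the most common pattern. In 1118 genes (39.2%) a fall was smaller in LysM and in 875 (30.7%) a rise was smaller. A rise was larger in LysM for 279 genes (9.79%) and a fall for 153 (5.37%), and in 424 (14.9%) the estimated effects had opposite signs. In 51 of the 279 (18.3%) the rise in CPM was instead the smaller in LysM. Genes with effects of the same sign and smaller in LysM made up 70.0% of the called genes, and 68.8 to 71.7% when each library was left out in turn. Over all 13030 tested genes the absolute RANKL effect was smaller in LysM in 8476 (65%), with medians of 0.412 in flox and 0.342 in LysM. That share also counts effects of opposite sign, unlike the 70.0%, so the 2 shares are not directly comparable. Smaller absolute effects in LysM were thus common over all tested genes. Whether they were more common among the called genes was not tested. Scaled by library size alone, 3028 genes were called, and in 72.4% the effects had the same sign and were smaller in LysM. The direction depended more on the scaling, since 56.4% of the called genes were higher with TMM factors and 43.3% with library size alone, where the rises smaller in LysM numbered 1367 and the falls smaller in LysM 824.

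**Figure D1:**
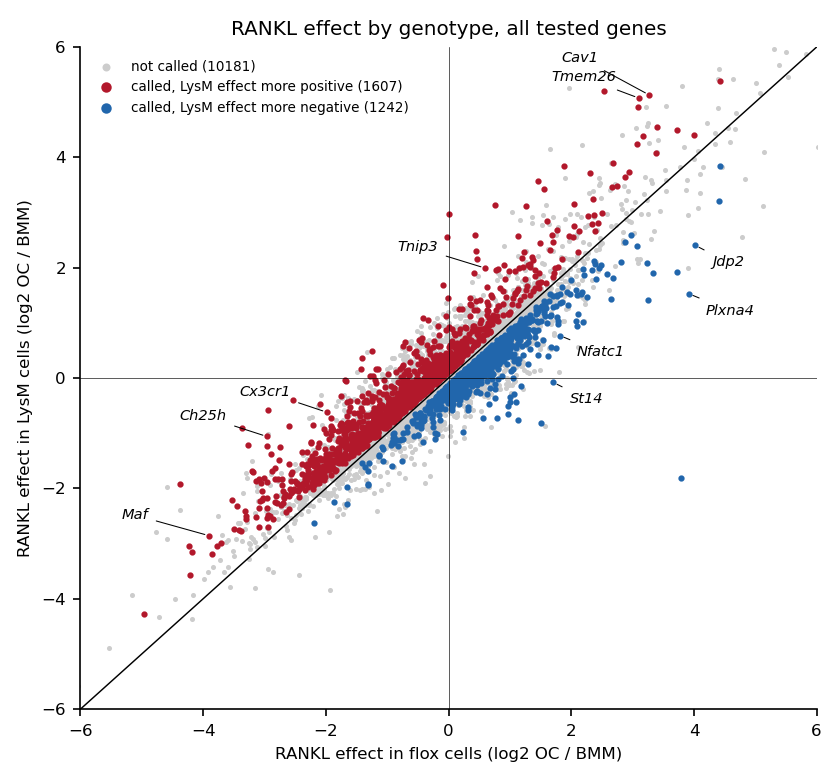
The log2 RANKL effect (OC against BMM) of each of the 13030 tested genes in flox cells (x axis) and LysM cells (y axis), with the line of equal effects; 26 genes lie outside the axes. Red points are the 1607 genes called higher and blue points the 1242 called lower in the interaction. Red points lie above the line and blue points below it, and 1118 of the called genes fell less in LysM (lower left, above the line) and 875 rose less (upper right, below it).

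Genes were also classed by their RANKL effect averaged over both genotypes, which weights the genotypes equally. Of 262 genes that fell by more than 4-fold on average, 105 were called higher and 2 lower, and the median interaction was 0.43. In the 899 genes that fell 2- to 4-fold, 328 were higher and 19 lower, with a median of 0.25. The 8055 genes with an average effect within 0.5 on the log2 scale had a median of -0.01, with 614 higher and 771 lower. In the 1435 genes that rose on average by 0.5 to 1 on that scale, 74 were higher and 285 lower, with a median of -0.10. The 564 genes that rose 2- to 4-fold had 67 higher and 100 lower and a median of -0.07, which was 0.03 with every gene that had a read, -0.13 with library size alone and -0.13 without flox BMM replicate 1. In the 233 genes that rose by more than 4-fold, 40 were higher and 23 lower, the median was 0.27, and the quartiles ran from -0.32 to 0.91. That median was 0.16 with library size alone, 0.11 without flox BMM replicate 1 and 0.17 without flox BMM replicate 2. Among called genes, those with the strongest average falls mostly fell less in LysM cells, and those with the strongest average rises went both ways.

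**Figure D2:**
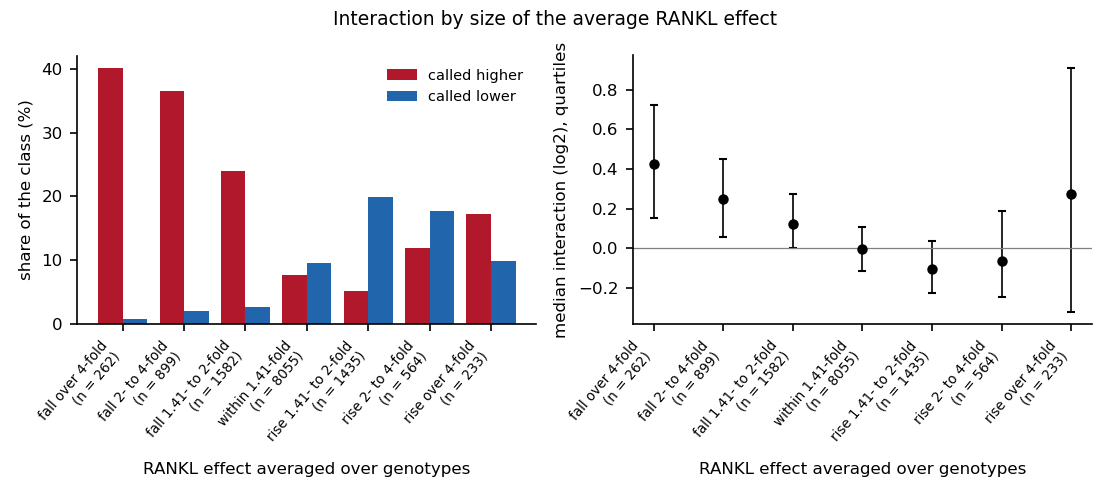
Left, share of genes called higher (red) and lower (blue) in the interaction in 7 classes of the RANKL effect averaged over genotypes, with the number of genes in each class. Right, median interaction (log2) with the quartiles. The share called higher reaches 40.1% in the class that fell most, and the widest quartiles are those of the class that rose most.

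Counts of called members, in this list and those below, stand beside 12.3% called higher and 9.53% called lower over all tested genes. Among 26 tested transcription factors of osteoclast formation, 8 were higher and 10 lower, with a median interaction of -0.07, against 0.01 over all genes. The lower ones had the larger values and included Nfatc1. Nfatc1 was measured at 96.5, 102 and 99.6 CPM in flox BMM, 352, 349.6 and 349 CPM in flox OC, 115, 118 and 115 CPM in LysM BMM and 198, 194 and 201 CPM in LysM OC. LysM BMM started slightly above flox BMM, and after RANKL every LysM library was far below every flox library, with no overlap. The interaction was -1.05 ± 0.04 (adjusted p = 1.09e-23), a RANKL effect of 1.82 in flox and 0.77 in LysM. Jdp2 (chr12:85599105-85639878), an AP-1 family protein needed for osteoclast formation, was measured at 10.2, 11.1 and 8.64 CPM in flox BMM, 161, 160.1 and 167 CPM in flox OC, 10.6, 10.6 and 10.9 CPM in LysM BMM and 54, 58.6 and 57.8 CPM in LysM OC. The BMM groups overlapped and the OC groups did not. Its interaction was -1.62 ± 0.1 (adjusted p = 1.88e-18). Prdm1 (chr10:44437177-44528501), which encodes the repressor Blimp1 that silences macrophage and anti-osteoclast genes, was measured at 15.8, 15.5 and 16.9 CPM in flox BMM, 38.6, 37.3 and 42 CPM in flox OC, 7.11, 6.64 and 5.43 CPM in LysM BMM and 6.51, 7.96 and 8.28 CPM in LysM OC. Levels in LysM were the lower in both conditions, and the RANKL rise of 1.29 in flox was 0.25 in LysM, an interaction of -1.04 ± 0.13 (adjusted p = 1.63e-08). Bhlhe40, a basic helix-loop-helix repressor, went from 19.9 ± 1.92 to 84.7 ± 1.78 CPM in flox and from 17.6 ± 0.903 to 36.1 ± 0.733 CPM in LysM, an interaction of -1.05. Fosl2, an AP-1 subunit, and Mitf, the melanocyte-inducing factor that drives osteoclast genes, were also lower, at -0.47 and -0.28.

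Other factors of the list went the other way on the log scale. Fos (chr12:85473890-85477273), the AP-1 subunit required for osteoclasts, was measured at 134, 109 and 105 CPM in flox BMM, 559, 565 and 556 CPM in flox OC, 48.5, 40.8 and 41.3 CPM in LysM BMM and 347, 335 and 312 CPM in LysM OC. Every LysM library was below every flox library of the same condition. The log2 RANKL effect was 2.27 in flox and 2.93 in LysM, an interaction of 0.66 ± 0.14 (adjusted p = 0.0079), although the rise in CPM was smaller in LysM. Such a reversal between scales concerned 151 of the 2849 called genes (5.30%), of which 137 were among the higher ones. Pparg, the nuclear receptor of lipid metabolism that also promotes osteoclast formation, went from 17.8 ± 1.57 to 28.9 ± 1.47 CPM in flox and from 10.4 ± 0.141 to 29.4 ± 1.23 CPM in LysM. Its OC groups overlapped, its BMM groups did not, and the interaction was 0.81 ± 0.1 (adjusted p = 4.71e-09).

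**Figure D3:**
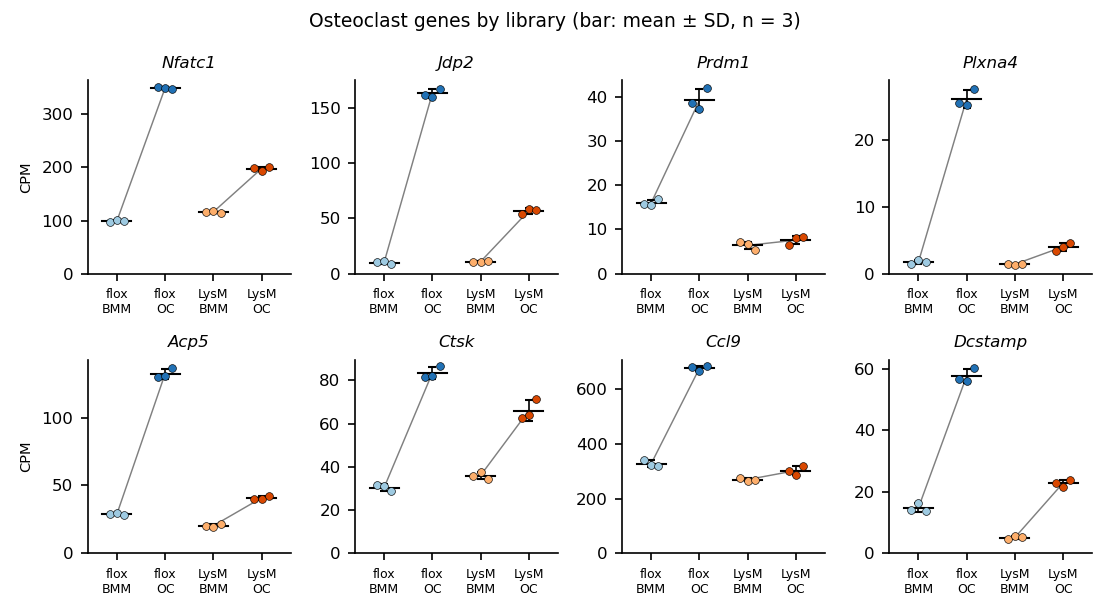
Level (CPM, axes from 0) of 8 genes in each of the 12 libraries, with the mean and SD of each group of 3 and a line joining the 2 conditions of a genotype. All but Plxna4 are from the osteoclast lists, and Plxna4 is shown as a gene with a large negative interaction. Nfatc1 was at 349 to 352 CPM in flox OC and 194 to 201 CPM in LysM OC, while Dcstamp, whose interaction was not called, was lower in LysM in both conditions.

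Of 28 tested genes of acid secretion and matrix breakdown, 2 were higher and 12 lower, with a median of -0.13. Acp5 (chr9:22126731-22135746), the tartrate-resistant acid phosphatase, was measured at 28.8, 29.5 and 28.4 CPM in flox BMM, 129.8, 130.4 and 137 CPM in flox OC, 19.8, 19.2 and 21.8 CPM in LysM BMM and 39.9, 40.3 and 42.3 CPM in LysM OC. The log2 RANKL effect was 2.19 in flox and 1.01 in LysM, and no LysM OC library reached a flox OC library. The interaction was -1.19 ± 0.07 (adjusted p = 4.73e-18). Ctsk (chr3:95499286-95509362), the collagen-cutting cathepsin K, was measured at 31.5, 30.9 and 28.7 CPM in flox BMM, 81.5, 82 and 86.6 CPM in flox OC, 35.9, 37.5 and 34.5 CPM in LysM BMM and 62.4, 64.2 and 71.3 CPM in LysM OC. LysM BMM were above flox BMM, LysM OC were below flox OC, and the interaction was -0.58 ± 0.07 (adjusted p = 7.63e-09). Tcirg1, the a3 subunit of the proton pump, went from 745 ± 38.7 to 925 ± 34.2 CPM in flox and from 717 ± 7.99 to 706 ± 20.1 CPM in LysM, with an interaction of -0.33. Atp6v0d2, a proton pump subunit also tied to fusion, went from 57.3 ± 1.38 to 79.4 ± 2.19 CPM in flox and from 26.7 ± 1.61 to 29.7 ± 0.287 CPM in LysM, and its interaction was -0.31 ± 0.07 (adjusted p = 0.000329). The chloride exchanger Clcn7 was also lower, at -0.2. The higher members were the pump subunits Atp6v0a1 and Atp6ap1, at 0.26 and 0.1. Mmp9, a gelatinase of osteoclasts, went from 2.06 ± 0.414 to 35.6 ± 1.63 CPM in flox and from 1.69 ± 0.392 to 21.9 ± 0.968 CPM in LysM, and its interaction of -0.4 ± 0.21 was not called (adjusted p = 0.186).

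The 23 tested genes of precursor fusion had 8 higher and 3 lower members and a median of 0.19. Dcstamp, the membrane protein required for fusion, was measured at 14.2, 16.4 and 13.7 CPM in flox BMM, 56.7, 56 and 60.1 CPM in flox OC, 4.62, 5.54 and 5.18 CPM in LysM BMM and 23, 21.7 and 23.9 CPM in LysM OC. Both conditions separated the genotypes without overlap, and the log2 RANKL effects of 1.96 and 2.15 did not differ by the test (0.19 ± 0.11, adjusted p = 0.243). Sirpa, the receptor for the surface protein Cd47, fell in both genotypes, from 3062 ± 105 to 1027 ± 5.11 CPM in flox and from 2842 ± 35 to 1543 ± 16.1 CPM in LysM, and the fall was smaller in LysM (interaction 0.69 ± 0.04, adjusted p = 2.45e-20). Cd47 itself had an interaction of 0.42 ± 0.04, going from 279 ± 14.6 to 309 ± 4.37 CPM in flox and from 218 ± 2.5 to 323 ± 4.67 CPM in LysM.

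Of 35 tested genes of podosomes and actin, 11 were higher and 3 lower, with a median of 0.07. Dock5, an exchange factor for Rac in the sealing zone, went from 67.9 ± 3.93 to 366 ± 11.1 CPM in flox and from 39.8 ± 3.22 to 279 ± 9.14 CPM in LysM, an interaction of 0.37 that was again positive on the log scale with the smaller rise in CPM in LysM. Src, the kinase required for the ruffled border, went from 6.47 ± 0.487 to 104 ± 1.13 CPM in flox and from 3.38 ± 0.116 to 71.8 ± 1.79 CPM in LysM. Its rise in CPM was also the smaller in LysM. Its interaction was 0.4 ± 0.12 (adjusted p = 0.0124), and without flox BMM replicate 1 or LysM BMM replicate 3 it was 0.346 or 0.375 and not called (adjusted p = 0.0559 and 0.0538). Vav3, another exchange factor for Rac, fell more in LysM, with -0.36.

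Among 13 tested factors that osteoclasts secrete, 7 were higher and 1 lower, with a median of 0.32. The lower one was Ccl9 (chr11:83572919-83578636), a chemokine abundant in osteoclasts, measured at 342, 322 and 319 CPM in flox BMM, 679, 665 and 684 CPM in flox OC, 274, 266 and 269 CPM in LysM BMM and 302, 286 and 319 CPM in LysM OC. The log2 RANKL effect was 1.04 in flox and 0.17 in LysM, and the interaction was -0.88 ± 0.04 (adjusted p = 3.2e-20). C3, the central complement component, went from 21.7 ± 0.716 to 113 ± 2.28 CPM in flox and from 25.9 ± 1.09 to 201 ± 4.42 CPM in LysM. It was higher in LysM in both conditions and its interaction was 0.58 ± 0.07 (adjusted p = 1.11e-09).

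The 16 tested genes of the RANK receptor and its proximal signalling had 7 higher and 2 lower members, between -0.19 and 0.45. Tnfrsf11a (chr1:105780718-105847981), which encodes RANK, was measured at 297, 267 and 249.6 CPM in flox BMM, 289, 299 and 295 CPM in flox OC, 179, 171 and 168 CPM in LysM BMM and 239.9, 239 and 247 CPM in LysM OC. LysM libraries were below flox libraries in both conditions, by -0.65 in BMM and -0.28 in OC, so the genotypes lay closer after RANKL (interaction 0.37 ± 0.06, adjusted p = 0.00018). Traf6, the adaptor of RANK, had a RANKL effect of -0.16 in flox and -0.16 in LysM, and its interaction was not called (adjusted p = 1). Map3k14, the kinase of the alternative NF-κB pathway, went from 33 ± 1.38 to 38.4 ± 2.77 CPM in flox and from 23.4 ± 0.941 to 37.1 ± 0.932 CPM in LysM and was higher at 0.45.

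Of 18 tested NF-κB subunits and feedback inhibitors, 9 were higher and 2 lower, with a median of 0.10, and 7 were called with DESeq2. Tnip3 (chr6:65590398-65634040), an inhibitor that binds A20, was measured at 83.6, 76.3 and 75.9 CPM in flox BMM, 115, 124 and 117 CPM in flox OC, 25.7, 28.1 and 27.9 CPM in LysM BMM and 105, 112 and 109 CPM in LysM OC. Every LysM library was below every flox library of the same condition, and the OC groups lay closer than the BMM groups. The interaction was 1.4 ± 0.06 (adjusted p = 1.05e-22). Relb (chr7:19606217-19629438), a subunit of the alternative pathway, was measured at 31, 31.3 and 34.9 CPM in flox BMM, 72, 72.4 and 70.9 CPM in flox OC, 16.5, 17.5 and 19.4 CPM in LysM BMM and 69.3, 72.8 and 72.3 CPM in LysM OC. The OC groups overlapped and the BMM groups did not, and the interaction was 0.85 ± 0.07 (adjusted p = 6.04e-13). Nfkb2, its partner, went from 82.2 ± 2.96 to 415 ± 4.26 CPM in flox and from 55.2 ± 1.08 to 382 ± 6.51 CPM in LysM (0.45), with the smaller rise in CPM in LysM. The canonical subunit Rela had 0.03 and was not called (adjusted p = 0.727).

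The 20 tested genes of ITAM and calcium signalling had 5 higher and 5 lower members. Rcan1, a calcineurin inhibitor, went from 42.6 ± 1.36 to 124 ± 1.84 CPM in flox and from 31.2 ± 1.17 to 50.6 ± 2.82 CPM in LysM, an interaction of -0.84 ± 0.06 (adjusted p = 1.11e-14). The calcium channel Itpr1 went from 24.7 ± 0.485 to 28.8 ± 0.851 CPM in flox and from 22.3 ± 2.41 to 35.4 ± 2.22 CPM in LysM, with 0.44. Of 22 tested negative regulators of osteoclast formation, 7 were higher and 3 lower, with a median of 0.09. Irf8 (chr8:120736358-120756694), a factor that restrains Nfatc1 in precursors, was measured at 198, 202 and 198 CPM in flox BMM, 31.2, 30.5 and 31.8 CPM in flox OC, 212, 209 and 212 CPM in LysM BMM and 47.2, 45.8 and 48 CPM in LysM OC. It fell in both genotypes and was higher in every LysM OC than in every flox OC library, an interaction of 0.51 ± 0.05 (adjusted p = 1.04e-10). Bcl6, a repressor that Blimp1 silences, had 0.38. Socs3, an inhibitor of cytokine receptors, rose less in LysM. It went from 4.13 ± 0.507 to 39 ± 1.59 CPM in flox and from 2.3 ± 0.228 to 9.86 ± 0.688 CPM in LysM, and the interaction was -1.15 ± 0.17 (adjusted p = 1.1e-06).

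Of 26 tested macrophage identity and surface genes, 18 were higher and 2 lower, with a median interaction of 0.34. RANKL lowered all 26 in flox (median log2 effect -1.9) and 25 in LysM (median -1.47). In these bulk samples, fewer cells of a type and less RNA per cell cannot be told apart. Maf (chr8:115682942-115707794), a factor of the mature macrophage state, was measured at 781, 808 and 826 CPM in flox BMM, 52.4, 54.5 and 54.1 CPM in flox OC, 871, 837 and 848 CPM in LysM BMM and 119, 114 and 120.2 CPM in LysM OC. The BMM groups were close, with LysM above flox, and after RANKL the LysM libraries were all above the flox libraries. The interaction was 1.05 ± 0.05 (adjusted p = 2.88e-23). Cx3cr1 (chr9:119901616-120068283), the fractalkine receptor, was measured at 389, 334 and 306 CPM in flox BMM, 86.9, 86 and 86.5 CPM in flox OC, 297, 289 and 285 CPM in LysM BMM and 188, 191 and 189.6 CPM in LysM OC. Its LysM BMM libraries were all below flox BMM and its LysM OC libraries all above flox OC, an interaction of 1.37 ± 0.11 (adjusted p = 1.34e-05). Mertk, a receptor for apoptotic cells, went from 167 ± 7.15 to 17 ± 0.357 CPM in flox and from 195 ± 2.71 to 34.3 ± 0.917 CPM in LysM, an interaction of 0.79. Gas6, its ligand, went from 795 ± 6.51 to 60.6 ± 1.48 CPM in flox and from 898 ± 15.8 to 113 ± 1.55 CPM in LysM, an interaction of 0.72. In both genes the fall in CPM was larger in LysM. Adgre1, the F4/80 antigen, had 0.37 and Cd14, the co-receptor for lipopolysaccharide, 0.65. The mannose receptor Mrc1 went against the list on the log scale, from 656 ± 42.4 to 144 ± 0.459 CPM in flox and from 567 ± 7.06 to 91.7 ± 3.04 CPM in LysM (-0.44, adjusted p = 3.18e-09), although its fall in CPM was the smaller in LysM.

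Of 26 tested scavenger, Fc and lectin receptors, 18 were higher and 1 lower (the same Mrc1), with a median of 0.26. Fcgr1, the high-affinity Fc receptor for IgG, went from 198 ± 6.14 to 19 ± 1.34 CPM in flox and from 143 ± 2.77 to 21 ± 0.154 CPM in LysM, with 0.62 ± 0.07. Of 11 tested monocyte markers 6 were higher and none lower. Ccr2, the receptor for monocyte recruitment, went from 78.3 ± 9.45 to 13.9 ± 0.855 CPM in flox and from 115 ± 3.82 to 31.4 ± 2.32 CPM in LysM (0.62), although its fall in CPM was the larger in LysM. Vcan, a proteoglycan, rose from 4.64 ± 0.182 to 41.8 ± 2.1 CPM in flox and from 2.61 ± 0.405 to 54.8 ± 1.8 CPM in LysM (1.21). Of 36 tested lysosomal genes, 17 were higher and 1 lower, with a median of 0.10. Lipa, the lysosomal acid lipase, went from 2233 ± 45.4 to 1215 ± 13.3 CPM in flox and from 1992 ± 2.12 to 1412 ± 12.7 CPM in LysM (0.38), and Ctsl, cathepsin L, fell in flox and rose in LysM (-0.24 and 0.12).

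Toll-like receptors and their adaptors had 12 of 23 tested members higher and none lower, with a median of 0.22. Tlr2 (chr3:83836273-83841767), a receptor for bacterial lipoproteins, was measured at 189, 188 and 197 CPM in flox BMM, 182, 191 and 187 CPM in flox OC, 109, 102 and 106 CPM in LysM BMM and 193, 194 and 194 CPM in LysM OC. LysM BMM were far below the other 3 groups, so the RANKL effect was -0.04 in flox, not called, and 0.88 in LysM. The interaction was 0.92 ± 0.04 (adjusted p = 3e-21). Tlr8, a sensor of RNA, instead fell in both genotypes, from 253 ± 5.11 to 31.2 ± 0.524 CPM in flox and from 236 ± 7.54 to 52.2 ± 1.28 CPM in LysM, and the fall was smaller in LysM (0.84 ± 0.05, adjusted p = 2.78e-17). Tlr9, a sensor of DNA, had a RANKL effect of -1.2 in flox and -0.03 in LysM, and the tested difference was 1.18 ± 0.16 (adjusted p = 6.06e-08).

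Of 49 tested interferon-stimulated genes, 25 were higher and 1, Ifitm3, was lower, with a median of 0.27. The median RANKL effect over the list was -0.33 in flox and -0.06 in LysM, with 32 genes falling in flox and 22 in LysM, where 37.8% and 35% of all genes fell. Mx1, a GTPase against viruses, was measured at 10.4, 13.3 and 14.5 CPM in flox BMM, 3.47, 4.15 and 3.61 CPM in flox OC, 10.6, 10.4 and 10.4 CPM in LysM BMM and 5.33, 6.48 and 5.62 CPM in LysM OC. The BMM groups overlapped and the LysM OC libraries were above all flox OC libraries, an interaction of 0.92 ± 0.16 (adjusted p = 1.78e-05). Cxcl10, an interferon-induced chemokine, rose in both genotypes, from 5.92 ± 0.117 to 49.5 ± 2.7 CPM in flox and from 2.19 ± 0.237 to 41.3 ± 2.34 CPM in LysM, with 1.17 on the log scale and the smaller rise in CPM in LysM. Among cytokines, Tnf went from 44 ± 0.834 to 26.7 ± 1.42 CPM in flox and from 27.8 ± 0.201 to 24.2 ± 0.797 CPM in LysM (0.52) and Ccl3, a chemokine for monocytes, fell more in LysM (-0.61).

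**Figure D4:**
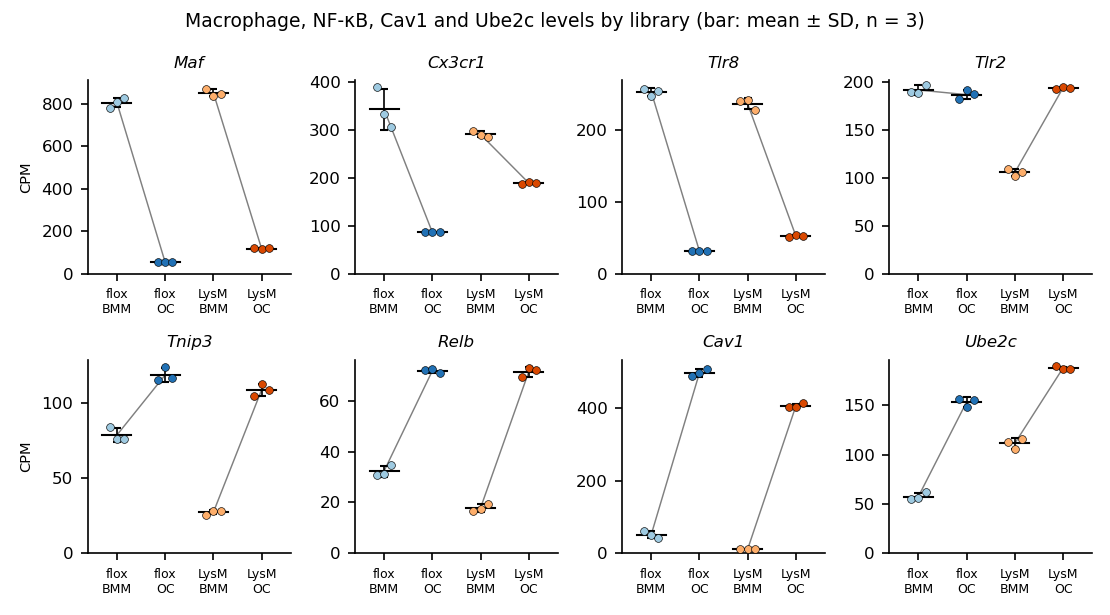
Level (CPM, axes from 0) of 8 genes in each of the 12 libraries, with group mean, SD and a line joining the 2 conditions of a genotype. Maf and Tlr8 differ between genotypes mainly in OC, Tlr2, Tnip3 and Relb mainly in BMM, Cav1 in both, Cx3cr1 in opposite directions, and Ube2c most in BMM.

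Mitosis and spindle genes formed the most uniform list, with all 32 tested members lower, between -0.66 and -0.21, and a median of -0.42. RANKL raised all 32 in flox (median 0.59) and 26 of them in LysM (median 0.18), while genotype differences ran the other way, since all 32 were higher in LysM BMM (median 0.76) and in LysM OC (median 0.32) than in flox. Over all genes 37% rose in flox, 35.5% rose in LysM, and 19.3% and 21.4% were higher in LysM BMM and LysM OC. Ube2c (chr2:164769898-164778822), a ubiquitin-conjugating enzyme that acts with the anaphase-promoting complex, was measured at 54.8, 55.6 and 62.1 CPM in flox BMM, 156, 148 and 156 CPM in flox OC, 113, 105 and 116 CPM in LysM BMM and 189, 187 and 187 CPM in LysM OC. The order was flox BMM, LysM BMM, flox OC and LysM OC, without overlap, and the interaction was -0.66 ± 0.05 (adjusted p = 3.29e-13). Of its exonic bases 22.8% are shared with another gene, whose reads cannot be separated in counts made without strand. Top2a (chr11:98992943-99024189), the topoisomerase that untangles chromosomes, went from 419 ± 23.8 to 684 ± 15.2 CPM in flox and from 606 ± 12.4 to 749 ± 15.7 CPM in LysM (-0.4 ± 0.04, adjusted p = 4.82e-10). Birc5 (chr11:117849251-117855743), survivin, went from 70.4 ± 5.89 to 120.0 ± 5.63 CPM in flox and from 119 ± 2.46 to 142 ± 2.1 CPM in LysM (-0.51 ± 0.06, adjusted p = 3.59e-09), and Mki67, the proliferation marker Ki-67, had -0.34. Of 37 tested genes of G1/S and DNA replication, 1 was higher and 13 lower, with a median of -0.07. Rrm2, a subunit of ribonucleotide reductase, went from 169 ± 8.91 to 268 ± 4 CPM in flox and from 212 ± 5.94 to 265 ± 2.34 CPM in LysM (-0.35). Cdkn1a, the inhibitor p21, rose in flox and fell in LysM (0.33 and -0.24, interaction -0.57 ± 0.05, adjusted p = 3.25e-12).

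Promoters of the mitosis and spindle list are shown because many hold 1 motif. A promoter without it, that of Birc5, is shown beside 2 with it. Every tested member of the list was lower, so called and uncalled members could not be compared. A part of the motif in the interaction was not tested. The 250 bases before each RefSeq start (GRCm38.p6) were searched on both strands for the letters CCAAT, the core recognised by the factor NF-Y; overlapping matches were counted separately. Of 29 promoters of the 27 list members with an entry, 82.8% held at least 1 match and 51.7% at least 2, against 35.2% and 13% of the 12282 promoters of 9623 tested genes with an entry. Capitals mark CCAAT or its reverse complement in the sequences below, written 5′ to 3′ in the direction of transcription. The window of Ube2c is chr2:164769679-164769928 on the plus strand, that of Top2a is chr11:99024190-99024439 on the minus strand, and that of Birc5 is chr11:117848987-117849236 on the plus strand.
Ube2c: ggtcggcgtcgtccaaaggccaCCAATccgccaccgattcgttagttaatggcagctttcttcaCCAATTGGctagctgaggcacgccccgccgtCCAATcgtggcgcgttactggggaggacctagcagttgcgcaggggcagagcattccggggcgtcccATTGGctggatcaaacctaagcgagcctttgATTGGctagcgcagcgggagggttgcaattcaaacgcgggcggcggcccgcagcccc
Top2a: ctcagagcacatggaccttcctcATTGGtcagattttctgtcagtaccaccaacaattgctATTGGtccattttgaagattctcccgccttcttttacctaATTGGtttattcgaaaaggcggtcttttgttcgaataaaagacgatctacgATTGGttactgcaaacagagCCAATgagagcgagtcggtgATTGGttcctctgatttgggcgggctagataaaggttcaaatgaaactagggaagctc
Birc5: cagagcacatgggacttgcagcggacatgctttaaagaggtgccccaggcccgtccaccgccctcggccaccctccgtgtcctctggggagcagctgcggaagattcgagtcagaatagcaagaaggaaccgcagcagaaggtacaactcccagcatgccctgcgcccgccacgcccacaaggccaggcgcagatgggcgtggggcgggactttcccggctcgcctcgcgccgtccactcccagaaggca
The first and second windows hold 6 matches each, the most of any promoter of the list. The Birc5 window holds none, and Birc5 was also lower in the interaction. Over all called genes the motif was in 33% of promoters of higher genes, 39.5% of lower genes and 35% of uncalled genes. In all 5 motifs were searched. The AP-1 motif TGANTCA was in 5.83%, 4.28% and 4.27% of these promoters, the E-box CACGTG in 6.27%, 9.21% and 8.63%, the interferon-stimulated response element in 3.91%, 2.91% and 2.63%, and the kappa B motif in 1.8%, 1.62% and 1.39%.

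Of 49 tested nuclear genes of the respiratory chain, 20 were lower and none higher, with a median of -0.14, and RANKL raised 43 of them in flox and 32 in LysM. Uqcrc2, a complex III subunit, went from 107 ± 3.88 to 152 ± 5.59 CPM in flox and from 123 ± 4.56 to 149.8 ± 3.96 CPM in LysM, with -0.22 ± 0.05 (adjusted p = 0.000576). The mitochondrial transcripts went the other way, with 5 of 7 tested higher and a median of 0.53. The clearest were mt-Nd5 and mt-Cytb, with interactions of 0.56 ± 0.12 (adjusted p = 0.00896) and 0.56 ± 0.13 (adjusted p = 0.0177), called under every alternative tried. Without any 1 of flox BMM replicates 2 and 3, LysM BMM replicates 1 and 3, flox OC replicates 2 and 3, or LysM OC replicates 2 and 3, and with every gene that had a read kept in the fit, 2 of the 7 were called. Of 24 tested cholesterol genes, 9 were higher and 1 lower. Abca1, a cholesterol exporter from the list of lipid handling genes, fell less in LysM (0.83). Of 23 tested secreted factors tied to metabolism, 10 were higher and 3 lower. Metrnl, a hormone that promotes heat production in fat, went from 246 ± 4.95 to 93.3 ± 1.58 CPM in flox and from 232 ± 4.17 to 135 ± 3.89 CPM in LysM (0.61 ± 0.04, adjusted p = 1.95e-15). Slc7a11, the cystine importer, rose less in LysM, from 5.77 ± 0.441 to 24.8 ± 0.59 CPM in flox and from 2.89 ± 0.136 to 6.44 ± 0.483 CPM in LysM (-0.95), as did Txnrd1, thioredoxin reductase (-0.37). Of 43 tested genes of the Polycomb complexes and the BAP1 complex, 4 were higher and 6 lower, with a median of -0.01. This median and the 23.3% called were close to those of all genes, 0.01 and 21.9%.

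**Figure D5:**
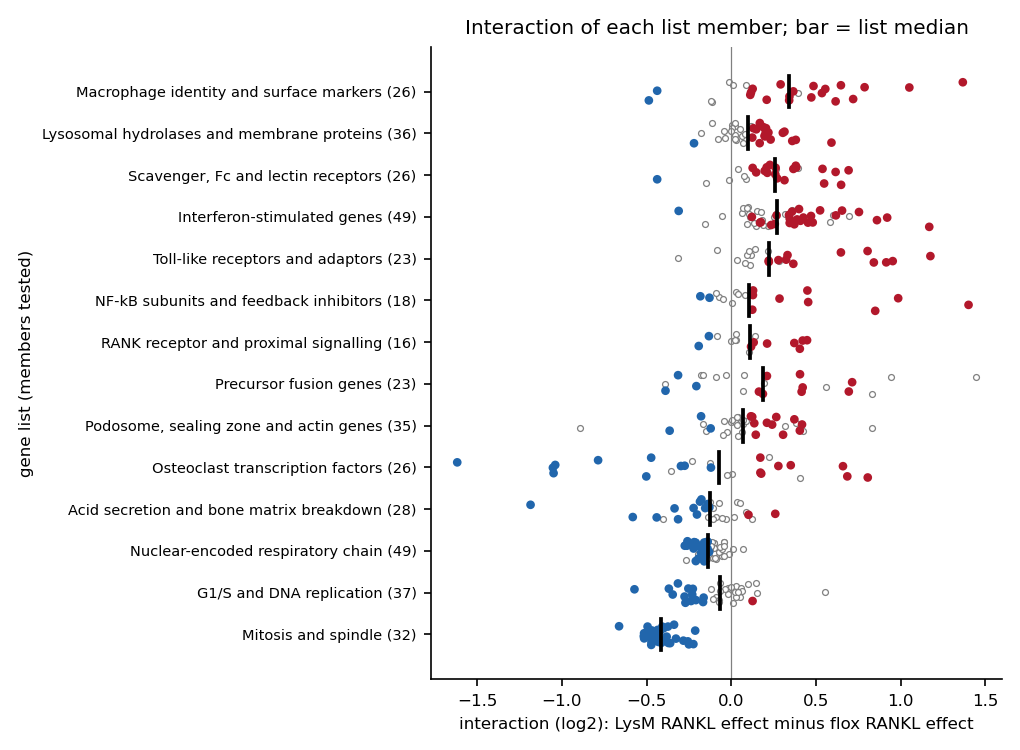
Interaction (log2, x axis) of each tested member of 14 gene lists, with the number tested. Filled red points were called higher, filled blue points called lower, and open points were not called; the bar is the list median. The mitosis points all lie below 0, and of the lists shown the macrophage list has the highest median, 0.34.

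The largest positive interactions among genes above 5 CPM were of 2 kinds. The first were genes low in LysM BMM that RANKL raised. Tmem26 (chr10:68723746-68782654), a membrane protein, was measured at 9.53, 8.4 and 7.46 CPM in flox BMM, 71.7, 72.9 and 73 CPM in flox OC, 1.3, 1.2 and 1.36 CPM in LysM BMM and 43.1, 42.2 and 45.4 CPM in LysM OC (1.97 ± 0.16, adjusted p = 4.96e-14). Cav1 (chr6:17306335-17341452), the main protein of caveolae, was measured at 60.5, 51.4 and 43 CPM in flox BMM, 487, 496 and 508 CPM in flox OC, 11.5, 11.6 and 11.6 CPM in LysM BMM and 402, 402 and 413 CPM in LysM OC (1.86 ± 0.14, adjusted p = 7.68e-06). In both genes no library of one group overlapped another group, and the rise in CPM was the smaller in LysM. Bcar1, an adaptor of integrin and Src signalling, and Nt5e, the CD73 nucleotidase, had 1.88 and 1.44. Tmem176b, a cation channel protein of myeloid cells, was measured at 15.5, 17.3 and 19.9 CPM in flox BMM, 16.5, 16.4 and 16.8 CPM in flox OC, 4.78, 4.77 and 5.43 CPM in LysM BMM and 15.2, 17.1 and 16.3 CPM in LysM OC. Only LysM BMM stood apart, and the interaction was 1.78 ± 0.12 (adjusted p = 5.91e-16). The second kind fell with RANKL, and fell less in LysM. Ch25h (chr19:34473786-34475135), which makes 25-hydroxycholesterol, was measured at 67, 57.4 and 49 CPM in flox BMM, 6.86, 8 and 7.41 CPM in flox OC, 41.5, 37.2 and 37.2 CPM in LysM BMM and 17.8, 19.1 and 18.6 CPM in LysM OC (1.9 ± 0.19, adjusted p = 1.76e-05). It was lower in LysM BMM than in flox BMM and higher in LysM OC than in flox OC, with no overlap, and 11.8% of its exonic bases are shared with another gene. Zfp618, a zinc finger protein, went from 17.1 ± 1.33 to 1.88 ± 0.0893 CPM in flox and from 21.2 ± 1.74 to 6.49 ± 0.558 CPM in LysM (1.47). Lrrc4 had 1.52, and the integrins Itga8 and Itga9 had 1.29 and 1.28.

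The largest negative interactions were of genes that RANKL raised. Plxna4 (chr6:32144268-32588192), a semaphorin receptor, was measured at 1.36, 2.01 and 1.74 CPM in flox BMM, 25.4, 25.1 and 27.6 CPM in flox OC, 1.47, 1.3 and 1.4 CPM in LysM BMM and 3.38, 4.01 and 4.61 CPM in LysM OC. The other groups lay below 5 CPM and flox OC stood alone, and the interaction was -2.4 ± 0.25 (adjusted p = 1.54e-10). St14 (chr9:31089402-31131853), the membrane protease matriptase, was measured at 6.8, 6.7 and 5.16 CPM in flox BMM, 19.9, 21.1 and 20.1 CPM in flox OC, 12.2, 10.3 and 10.1 CPM in LysM BMM and 10.6, 10.5 and 9.73 CPM in LysM OC. RANKL raised it in flox by 1.71, whereas the LysM effect of -0.08 was not called, and the order of the genotypes was opposite in BMM and OC (-1.79 ± 0.13, adjusted p = 1.59e-15). Acy1, an enzyme that deacetylates amino acids, went from 2.35 ± 0.211 to 49.8 ± 1.15 CPM in flox and from 2.7 ± 0.341 to 24.9 ± 2.14 CPM in LysM (-1.2). Oaf, Bbs9, a protein of the primary cilium, and Mdm1, a centriole protein, had -1.21, -1.15 and -1.11, all with a smaller rise in LysM. Ccr1, a receptor for inflammatory chemokines including Ccl9, was measured at 23.5, 22.3 and 21.6 CPM in flox BMM, 25.9, 24.6 and 28.7 CPM in flox OC, 16.8, 15.5 and 13.4 CPM in LysM BMM and 8.56, 6.73 and 8.03 CPM in LysM OC. It rose slightly in flox and fell in LysM (-1.2 ± 0.12, adjusted p = 5.5e-11).

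In all, 100 genes were called for RANKL in opposite directions in the 2 genotypes, 58 that fell in flox and rose in LysM and 42 the reverse. By the size of the smaller effect, Smad3, a transducer of TGF-β signals, led the first set and was measured at 15.4, 16.8 and 13.4 CPM in flox BMM, 11.7, 12.7 and 11.4 CPM in flox OC, 9.12, 9 and 11.3 CPM in LysM BMM and 14.8, 15.8 and 14.2 CPM in LysM OC. Flox was above LysM in BMM and below it in OC, without overlap (0.96 ± 0.12, adjusted p = 2.66e-08). Angpt2, an angiopoietin, Kcnj2, an inward potassium channel, and Col4a2, a basement membrane collagen, belonged to the same set, with 0.79, 0.68 and 0.82. The flox BMM and flox OC libraries of Col4a2 overlapped. Mxd1 (chr6:86647044-86669159), an antagonist of MYC, belonged to the second set and was measured at 15.4, 18 and 18.7 CPM in flox BMM, 25.4, 28 and 26.9 CPM in flox OC, 16.8, 15.9 and 17.6 CPM in LysM BMM and 14.2, 14.2 and 12.7 CPM in LysM OC. The BMM groups overlapped and the OC groups did not (-0.91 ± 0.1, adjusted p = 7.47e-10). Gadd45b, a stress-response gene, went from 12.3 ± 0.535 to 15.2 ± 0.567 CPM in flox and from 9.17 ± 0.65 to 6.33 ± 1.25 CPM in LysM (-0.85). Genotype was called in opposite directions in BMM and OC for 314 genes.

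Of the genes with average falls over 4-fold, 40.8% were called, and of those with rises over 4-fold 27% were called for the interaction, against 21.9% overall. The 8 genes at either end often had few counts in BMM or OC. Of 8 with the largest rises, none was called, although without LysM BMM replicate 1 Mycl, a MYC family gene, was (1.91, adjusted p = 0.0427). Zbtb32, a zinc finger repressor, went from 0.449 to 0.824 CPM in flox BMM to 27.8 to 28.6 CPM in flox OC, and from 0.529 to 0.760 CPM in LysM BMM to 37.5 to 39.8 CPM in LysM OC. Scin, the actin-severing scinderin of osteoclasts, had 0 counts in all 3 LysM BMM libraries, 1.14 to 1.30 CPM in LysM OC and 7.11 to 8.57 CPM in flox OC. Of 8 with the largest falls, Fcrls and Hpgd were called. Hpgd, the enzyme that breaks down prostaglandins, had an interaction of 0.68 (adjusted p = 0.0411), and its call was lost without any 1 of flox BMM replicate 2, LysM BMM replicates 2 and 3, the 3 flox OC replicates, and LysM OC replicates 2 and 3, with adjusted p of up to 0.174. It was also lost with library size alone (adjusted p = 0.0724) and limma-voom (adjusted p = 0.0837). Plxdc2 was not called, but was without flox BMM replicate 1, flox OC replicate 1 or LysM OC replicate 1 (0.711, 0.751 and 0.803, adjusted p = 0.0121, 0.0496 and 0.0325). Fcrls, a scavenger receptor-like protein, went from 176 ± 11.3 to 9.47 ± 0.634 CPM in flox and from 66.5 ± 2.96 to 5.6 ± 0.131 CPM in LysM (0.65 ± 0.12, adjusted p = 2.5e-05). Cd163, the haemoglobin scavenger receptor, fell in both genotypes, from 29.4 ± 2.66 to 1.11 ± 0.0995 CPM in flox and from 23.6 ± 0.462 to 1.17 ± 0.114 CPM in LysM, and its interaction of 0.39 ± 0.25 was not called (adjusted p = 0.287).

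Markers of other cell types differed between the genotypes and moved with RANKL. The counts of called markers below stand beside 21.9% called over all tested genes, and most of these lists had few tested members. Summed stromal and osteoblast markers were 351 to 375 CPM in flox BMM, 122 to 131 in LysM BMM, 284 in each flox OC library and 94.8 to 108.5 in LysM OC, with none of 21 tested markers called and 1 of 30 (Bglap) at 0 in every library. Without LysM OC replicate 2, 2 stromal markers were called. Summed megakaryocyte markers were 359.9 to 423 CPM in flox BMM, 58.4 to 66.0 in LysM BMM, 143 to 148 in flox OC and 23.4 to 23.7 in LysM OC, with none of 5 tested called and Gp6 at 0 in every library. Neutrophil markers were 117 to 125, 64.7 to 65.7, 42.8 to 45.1 and 19.7 to 22.6 CPM in the same order, with 1 of 8 called. Dendritic, B, T and NK, and endothelial markers had 1 of 6, 1 of 4, 2 of 2 and 0 of 4 called. No mast cell, erythroid or adipocyte marker passed the filter, and each of these lists summed to under 1 CPM in every library. The part of other cells in the interaction was not tested.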

How the data were processed

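The deposited files hold raw counts of reads per gene for each of the 12 libraries. Reads were aligned to GRCm38 with STAR 2.0.4b and counted with featureCounts, per the submitters' processing notes. Exons were counted by gene without regard to strand with featureCounts 1.4.5-p1, per the file headers, so reads of overlapping genes on opposite strands cannot be told apart. Of 41388 gene IDs, 40254 had a symbol in the name table used, and the rest held 0.136% of counts. From these counts edgeR 4.0.16 (R 4.3.3, TMM factors, filterByExpr, robust quasi-likelihood fit) estimated 4 group means and their contrasts, and p-values were adjusted over 13030 genes. The procedure was also run on simulated counts drawn independently for each library. That run cannot show how the procedure performs on technical replicates. Alternatives used limma 3.58.1 and DESeq2 1.42.0. A library's 3 counts equal 0.135 to 0.17 CPM. Levels given below that rest on fewer than 3 counts and are imprecise.

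Named genes were Asxl2 and Lyz2, the 12 largest called interactions in each direction, the 6 clearest opposite responses, the 8 largest average RANKL rises and falls (each with at least 5 CPM in the highest group), and up to 4 called members per list (at least 1 CPM). Mitochondrial genes (outside their own list), ribosomal protein genes and unnamed gene models stayed out of the rankings. Other list members are named for their role. The comparison, gene lists and members were chosen with earlier results of these data known. The pattern shares under other scalings, with libraries left out and on the CPM scale were added after seeing the data. Promoter sequences are RefSeq's, for GRCm38.p6.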

Additional observations from a re-analysis of the deposited data

Results flagged for a closer look

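The interaction is by its construction a test of whether RANKL effects differed between the genotypes, and 2849 genes were called. The named genes among them whose RANKL effects were called in opposite directions are listed for that reason. Those that fell in flox and rose in LysM cells were Smad3 (0.96), Angpt2 (0.79), Col4a2 (0.82), Kcnj2 (0.68), Ctsl (0.36), Nfkbiz, an atypical IκB protein (0.99), Cxcl16, a chemokine that also acts as a scavenger receptor (0.55), Pfkp, a phosphofructokinase (0.34), mt-Co1, a mitochondrial complex IV subunit (0.53), Rbpj, the DNA-binding effector of Notch (0.30). Those that rose in flox and fell in LysM cells were Ccr1 (-1.20), Mxd1 (-0.91), Gadd45b (-0.85), Cdkn1a (-0.57), Anpep, aminopeptidase N (-0.44). Values are interactions on the log2 scale. The flox BMM and flox OC libraries of Col4a2 overlapped, as did the LysM BMM and LysM OC libraries of Nfkbiz. The mt-Co1 call was lost (adjusted p by edgeR's test up to 0.0703) under the 9 alternatives named beside the mitochondrial transcripts. Of the exonic bases of Cxcl16, 18.3% are shared with another gene.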

How the results depend on the processing

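The count of RANKL by genotype interaction calls, 2849, was 1854 at an adjusted p under 0.01 (1096 higher, 758 lower) and 504 (340 higher, 164 lower) when edgeR's test was made against a fold of 1.2, both narrower by construction. Leaving out 1 library at a time gave 2447 to 3289 interaction calls, 9378 to 9810 RANKL in flox calls, 8745 to 9368 RANKL in LysM calls, 4515 to 5190 genotype in BMM calls and 4704 to 5749 genotype in OC calls. DESeq2 called 2072, limma-voom 2841, median-ratio size factors 2824, library size alone 3028, every gene with a read 2727 and at least 1 CPM in every library 2836. No gene called under both the main and an alternative setting changed direction. Over the named genes, 3481 of the alternative values kept direction and call, 125 lost the call and 20 gained it.

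With the replicate number as a block, 2784 genes were called, 2753 of them shared with the fit without it, and the calls of Plxdc2, Tspan13 and Pf4 changed among 192 genes. The labels do not say whether the numbers pair the libraries. Deviations from group means correlated between -0.0353 and 0.0397 over 18 same-numbered pairs, and between -0.0548 and 0.0457 over 36 others. Of 12 libraries, 3 correlated best with a library of their own number. Such values cannot show whether the libraries were paired.

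Depth limits genes near 0 in BMM, whose folds are imprecise, and 26 genes lie outside the axes of the plot of RANKL effects. Of 920 named or listed genes, 66 overlap a second gene over more than 10% of their exonic length.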

Other observations

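Among 31 tested STAT, SOCS and cytokine receptor genes, 14 were higher and 6 lower in the interaction. Tgfbr2, a receptor for TGF-β, fell less in LysM, from 563 ± 5.49 to 129.8 ± 3.03 CPM in flox and from 548 ± 5.46 to 179 ± 2.87 CPM in LysM (0.5 ± 0.04), and Csf2rb, the shared receptor chain for GM-CSF and related cytokines, rose less, from 205 ± 8.02 to 286 ± 1.49 CPM in flox and from 159 ± 1.34 to 174 ± 2.75 CPM in LysM (-0.34 ± 0.04). Of 15 tested Notch pathway genes 5 were higher and none lower, with the ligand Jag2 going from 2.61 ± 0.122 to 1.42 ± 0.404 CPM in flox and from 3.29 ± 0.363 to 3.56 ± 0.39 CPM in LysM (0.97 ± 0.25). Of 24 tested genes of amino acid supply and ATF4 targets, 2 were higher and 7 lower, and the stress protein Nupr1 was the highest at 1.16 ± 0.18. All 30 tested genes of ribosome biogenesis rose with RANKL in both genotypes (median 1.37 in flox and 1.3 in LysM). Of these 7 (23.3%) were lower in the interaction and none higher, against 9.53% lower and 21.9% called in either direction over all genes. Over the alternatives 4 to 16 were called. Nolc1, a nucleolar chaperone, went from 87.5 ± 7.86 to 297 ± 1.26 CPM in flox and from 89.5 ± 2.29 to 249.7 ± 5.89 CPM in LysM (-0.28 ± 0.05). Of 29 tested glycolysis and hypoxia genes 7 were higher, among them the glucose transporter Slc2a3 (0.43 ± 0.09), and 1 lower. The 27.6% called in this list lay near the 21.9% over all genes. Of 34 tested lipid genes 10 were higher and 3 lower, and the cholesterol exporter Abcg1 (-0.51 ± 0.11) went opposite to Abca1.

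Kbtbd11 was chosen after its values were seen, because it lay far from the line of equal RANKL effects. It had 0.0567, 0.0515 and 0.224 CPM in flox BMM, 1.58, 1.83 and 1.36 in flox OC, 0.434, 0.626 and 0.388 in LysM BMM, and 0.205, 0.0989 and 0.1 in LysM OC. The interaction was -5.59 ± 0.68, at levels of few counts in several of these libraries.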
